A study of Mus musculus with 10 samples.

Results

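The genes described here are 10 G protein-coupled receptors for small lipids and metabolites, namely *S1pr1*, *S1pr2*, *S1pr5*, *Lpar6*, *Ptafr*, *Cnr2*, *P2ry6*, *P2ry13*, *Adora2a* and *Sucnr1*. They were taken by name from the 12148 genes of a liver count table, and all 10 were among the 12147 genes tested. They had been chosen by their levels in the same 10 livers that are compared below, all 10 of them with a lower mean in the treated group, so their differences between groups are given as a description without a test. Liver RNA was sequenced from 5 wild-type germ-free C57BL6 mice given microbiota-derived extracellular vesicles (GF+MEV) and from 5 wild-type germ-free C57BL6 mice given PBS (GF+PBS). The vesicles came from the gut content of conventionally colonised control mice, and doses of 80 μg were given by mouth, 2 per week for 3 weeks. Germ-free mice have no microbiota of their own, in either group, and neither their age nor their sex is stated in the sources used here. The whole liver was used, so every value is an average over all its cell types, and fewer cells of a type cannot be told apart from less RNA per cell.

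Receptors of this kind sit in the plasma membrane and pass the presence of a ligand outside the cell to G proteins inside it, which are switched off again by RGS proteins. Sphingosine 1-phosphate (S1P), lysophosphatidic acid (LPA), platelet-activating factor, endocannabinoids, nucleotides, adenosine and succinate are all made by ordinary metabolism and act on nearby cells once released. In the liver such receptors are known on endothelial cells, Kupffer cells, lymphocytes, stellate cells and hepatocytes. *S1pr1*, *S1pr2* and *S1pr5* encode receptors of S1P, *Lpar6* a receptor of LPA, *Ptafr* the receptor of platelet-activating factor and *Cnr2* the cannabinoid receptor of immune cells. *P2ry6* encodes a receptor of UDP, *P2ry13* a receptor of ADP, *Adora2a* a receptor of adenosine and *Sucnr1* the receptor of succinate.

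Libraries held between 15746119 and 20523649 counts on genes, and levels are given as CPM, counts scaled to library size, after TMM scaling, a step that sets libraries to a common scale. The TMM factor was 0.890 in GF+MEV replicate 2 and between 0.978 and 1.04 in the other 9 libraries. Some GF+PBS livers were more alike than others. Over the 300 genes that varied most among GF+MEV livers, the root mean square distance on the log2 scale was 0.529 between GF+PBS replicates 1 and 3 and 0.496 between replicates 4 and 5, while the other 8 pairs of that group differed by 0.68 to 0.85. Pairs of GF+MEV livers differed by 0.922 to 1.33. These genes were picked for varying among GF+MEV livers, so the distances of GF+MEV and GF+PBS pairs cannot be compared. Hepatocyte markers were at high levels in all livers, with *Alb*, the gene of albumin, at 76250 ± 7005 CPM in GF+MEV and 78080 ± 4590 CPM in GF+PBS livers (SD, n = 5 each). Of the 8 hepatocyte markers tested, 3 were called higher in GF+MEV by the edgeR fit, with log2 fold changes of 0.45 for *Hnf4a* (edgeR adjusted p = 0.000361), 0.38 for *Cps1* (edgeR adjusted p = 0.0414) and 0.36 for *Ass1* (edgeR adjusted p = 0.0091), and 0 were called lower.

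Promoter sequences, running from 250 bases before to 50 bases after a RefSeq transcription start, were found for 7 of the 10 receptors in the mouse build GRCm38.p6. *Cnr2* has 2 of them, which gives 8 promoters, and none was found for *S1pr1*, *P2ry6* and *Adora2a*. Of the 8, 6 held at most 6 CpG dinucleotides, as did 17.7% of the 12064 promoters of 9370 genes in the count table. The other 2, of the S1P receptors *S1pr2* and *S1pr5*, held 18 and 27, where the median of all promoters was 20. The limit of 6 equals the highest count among the 6 low promoters, and 2 of those are of *Cnr2*, so the share is a description and not a test. Below, 4 are shown to let this contrast be seen, each in the direction of transcription with CpG dinucleotides in capitals. They lie at chr9:20976744-20977043 (minus strand, *S1pr2*), chr9:21248394-21248693 (minus strand, *S1pr5*), chr4:135894939-135895238 (plus strand, the first of *Cnr2*) and chr3:60081619-60081918 (plus strand, *Sucnr1*).
S1pr2: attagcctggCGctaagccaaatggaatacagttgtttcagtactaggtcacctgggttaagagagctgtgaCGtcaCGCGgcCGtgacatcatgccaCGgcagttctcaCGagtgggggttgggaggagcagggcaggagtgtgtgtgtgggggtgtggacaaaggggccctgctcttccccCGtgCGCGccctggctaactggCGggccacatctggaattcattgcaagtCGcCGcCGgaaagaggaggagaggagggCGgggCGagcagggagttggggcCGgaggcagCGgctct
S1pr5: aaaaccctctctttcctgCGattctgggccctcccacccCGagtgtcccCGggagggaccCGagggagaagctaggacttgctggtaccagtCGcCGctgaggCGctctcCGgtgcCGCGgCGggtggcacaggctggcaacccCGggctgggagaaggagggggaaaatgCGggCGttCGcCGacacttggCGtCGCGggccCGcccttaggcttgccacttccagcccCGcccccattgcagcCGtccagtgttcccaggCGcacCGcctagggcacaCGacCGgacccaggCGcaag
Cnr2: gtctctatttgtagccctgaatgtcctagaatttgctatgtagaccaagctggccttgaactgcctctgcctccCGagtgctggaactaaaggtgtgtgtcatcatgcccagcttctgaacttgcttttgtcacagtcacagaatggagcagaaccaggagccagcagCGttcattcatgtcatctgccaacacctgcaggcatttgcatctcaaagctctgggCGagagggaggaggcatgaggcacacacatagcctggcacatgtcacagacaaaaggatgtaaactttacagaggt
Sucnr1: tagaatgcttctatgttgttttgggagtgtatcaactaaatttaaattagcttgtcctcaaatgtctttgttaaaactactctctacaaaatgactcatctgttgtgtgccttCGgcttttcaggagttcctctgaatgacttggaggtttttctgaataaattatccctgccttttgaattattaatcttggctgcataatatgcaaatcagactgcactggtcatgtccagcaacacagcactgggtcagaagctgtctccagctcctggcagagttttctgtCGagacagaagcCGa

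The promoters shown for *Cnr2* and *Sucnr1* hold 3 CpG dinucleotides each, those of *Ptafr* and *P2ry13* hold 6, and that of *Lpar6* holds 1. The share of G and C was 62.0% for *S1pr2* and 69.3% for *S1pr5*, against 40.7% for *Sucnr1*, 40.0% for *Lpar6* and a median of 60.3% over all promoters. Short motifs were searched on both strands. The GC box, GGGCGG, was in the promoters of *S1pr2*, *S1pr5* and *Ptafr* and in 60.4% of all promoters. The cAMP response element, TGACGTCA, was in the *S1pr2* promoter alone among the 8, and in 2.87% of all promoters. An ETS motif, AGGAAG, was in those of *Lpar6* and *P2ry13* and in 33.5% of all promoters. The TATA box, TATAAA, and the E-box, CACGTG, were in none of the 8, and in 7.82% and 9.88% of all promoters. None of these motifs contains another of them. These matches describe letters in the window and do not show that a factor binds there.

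The receptors differed widely in level. Per kilobase of exon, *Sucnr1* stood highest with 35.0 CPM in GF+PBS livers, and *S1pr1* came next with 14.7 CPM. *Lpar6* and *S1pr5* followed at 1.96 and 1.77 CPM per kilobase, and *P2ry13* at 0.921. *S1pr2* (0.687), *Adora2a* (0.684), *Cnr2* (0.629) and *P2ry6* (0.576) lay close together, and *Ptafr* was lowest at 0.293 CPM per kilobase. In GF+PBS livers the ranges of neighbours in this order were apart between *Sucnr1* and *S1pr1*, *S1pr1* and *Lpar6*, *S1pr5* and *P2ry13*, and *P2ry6* and *Ptafr*, and the other neighbours overlapped. In GF+MEV livers the first 3 of these gaps were also free of overlap, and the order was the same apart from *S1pr2* changing places with *Adora2a* and *Cnr2* with *P2ry6*. Among all tested genes ranked by level per length, *Sucnr1* was at the 89.3 percentile, *S1pr1* at 77.8 and *Ptafr* at 3.26.

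**Figure D1:**
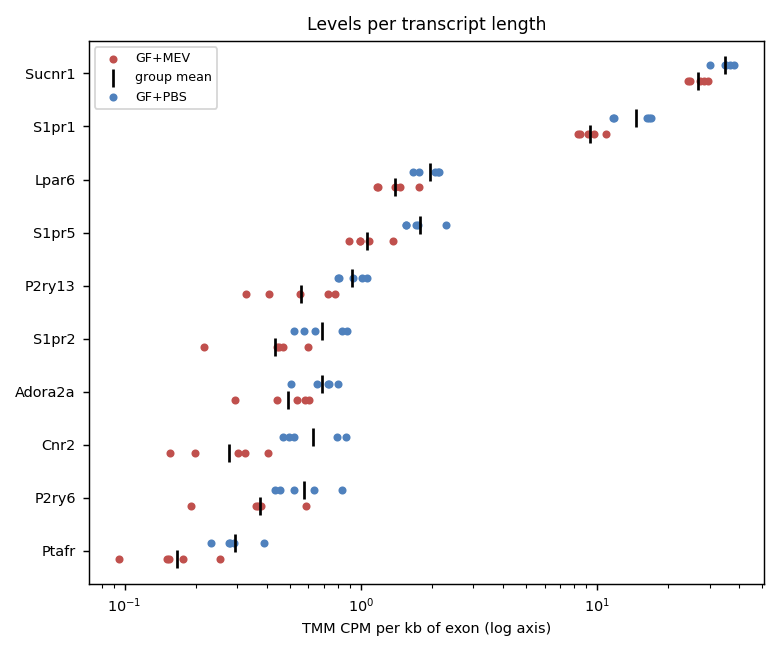
Levels of the 10 receptors per kilobase of exon, in TMM CPM on a log axis, with a point for each liver and a bar at each group mean. *Sucnr1* (35.0 in GF+PBS) and *S1pr1* (14.7) lie far above the other 8, which lie between 0.293 and 1.96 in GF+PBS livers.

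All 10 receptors had a negative log2 fold change of GF+MEV over GF+PBS, with a median of -0.65, where the median of all tested genes was -0.0037 and 51.0% of them were negative. Log2 fold changes, and differences on the log2 scale below, are those of the edgeR fit for GF+MEV over GF+PBS. The edgeR fit across all genes called 5 of the 10 lower (*S1pr1*, *S1pr5*, *Lpar6*, *Cnr2* and *Sucnr1*) and 0 higher, and it called 3.52% of all tested genes lower and 7.64% in either direction. For 5 of the 10 (*S1pr1*, *S1pr5*, *Cnr2*, *P2ry13* and *Sucnr1*) every GF+MEV liver was under every GF+PBS liver, which was so for 3.45% of all tested genes. As the receptors had been selected on these values, the counts are no evidence about them as a group. With the alike GF+PBS libraries summed, 1 with 3 and 4 with 5, the fit called 3 of them, leaving out *Lpar6* and *Sucnr1*. Against GF+PBS replicates 2, 4 and 5 alone it also called 3, leaving out *Lpar6* and *Cnr2*, and against replicates 1 and 3 alone it called 5, with *S1pr2* in place of *S1pr5*, both settings added after the data were seen.

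**Figure D2:**
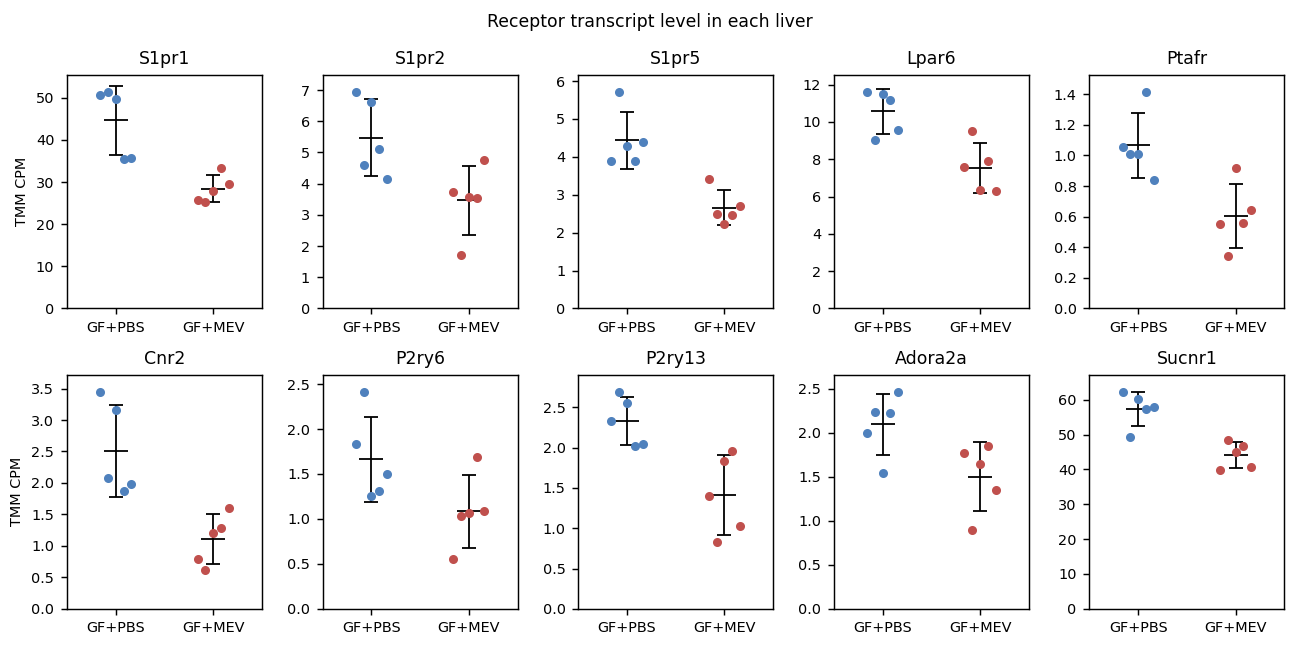
Level of each receptor in TMM CPM on linear axes from 0, with a point for each liver in order of replicate number, and the mean ± SD of 5 livers as bars. *S1pr1*, *S1pr5*, *Cnr2*, *P2ry13* and *Sucnr1* show no overlap between the groups, by as little as 0.0564 CPM for *P2ry13*, and the other 5 overlap.

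*S1pr1* (ENSMUSG00000045092), the receptor that keeps endothelium tight and guides lymphocytes out of lymphoid tissue, lies on chromosome 3 of GRCm38 from 115710433 to 115715072, on the minus strand. It was 25.8, 25.3, 28.0, 33.4 and 29.6 CPM in GF+MEV replicates 1 to 5, and 50.6, 51.4, 49.8, 35.5 and 35.8 CPM in GF+PBS replicates 1 to 5. The GF+PBS livers fell into a high set of 3 and a low set of 2, and replicate 4 of GF+MEV came within 2.13 CPM of the lowest of them. The means were 28.4 ± 3.26 and 44.6 ± 8.22 CPM (SD, n = 5 each), a difference of -0.65 on the log2 scale (standard error 0.14). Set against GF+PBS replicates 1 and 3 only, the log2 fold change was -0.82, and it was -0.52 against replicates 2, 4 and 5. Sinusoidal endothelium is a cell type that carries this receptor. Summed levels of 12 of its markers were 275.8, 244.0, 391.8, 319.4 and 324.9 CPM in GF+MEV replicates 1 to 5. In GF+PBS replicates 1 to 5 they were 386.4, 369.2, 398.4, 308.4 and 301.9 CPM. All 12 were tested, with a median log2 fold change of -0.21, and the edgeR fit called *Clec4g* lower (log2 fold change -0.48, edgeR adjusted p = 0.0214) and *Lyve1* higher (0.84, edgeR adjusted p = 0.0401). Of the 12, 9 had a negative log2 fold change. *Eng*, the one at the highest level, was 60.1 ± 9.39 CPM in GF+MEV and 71.6 ± 7.39 CPM in GF+PBS livers (SD, n = 5 each), or -0.25 on the log2 scale (edgeR adjusted p = 0.173), and *Fcgr2b* (-0.45, edgeR adjusted p = 0.0701) was called by DESeq2 alone. Whether the number of endothelial cells had a part in the level of *S1pr1* was not tested.

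*S1pr2* (ENSMUSG00000043895, chromosome 9 from 20962361 to 20976781, minus strand) encodes an S1P receptor that in hepatocytes also answers to conjugated bile acids. Its level was 3.72, 1.73, 3.57, 3.54 and 4.76 CPM in GF+MEV and 6.94, 4.60, 6.61, 5.10 and 4.14 CPM in GF+PBS replicates 1 to 5. The groups overlapped, since replicate 5 of GF+MEV was above replicates 2 and 5 of GF+PBS, and GF+PBS replicates 1 and 3 stood above the rest of their group. The log2 fold change was -0.65 (standard error 0.28), from a mean of 5.48 ± 1.24 to 3.46 ± 1.09 CPM (SD, n = 5 each). It was -0.96 against GF+PBS replicates 1 and 3 alone and -0.41 against replicates 2, 4 and 5 alone.

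*S1pr5* (ENSMUSG00000045087, chromosome 9 from 21242912 to 21248443, minus strand), best known from natural killer cells and oligodendrocytes, was 3.42, 2.48, 2.22, 2.47 and 2.699 CPM in GF+MEV and 3.89, 5.72, 4.29, 3.89 and 4.38 CPM in GF+PBS replicates 1 to 5. The groups did not overlap, with the highest GF+MEV liver 0.471 CPM below the lowest GF+PBS liver. Its log2 fold change was -0.74 (standard error 0.14, means 2.66 ± 0.456 and 4.43 ± 0.752 CPM, SD, n = 5 each). It shares 51 exon bases with Gm48303 on the other strand, and whether the counting used strand is not given in the sources used here. None of 11 marker genes of T and natural killer cells, such as *Ncr1* and *Cd3e*, was in the count table.

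The only other S1P receptor tested was *S1pr3*, which acts mainly in vascular and mesenchymal cells. It was 3.25 ± 0.541 CPM in GF+MEV and 2.80 ± 0.661 CPM in GF+PBS livers (SD, n = 5 each), a difference of 0.22 on the log2 scale (edgeR adjusted p = 0.542), and its value was -0.05 against GF+PBS replicates 1 and 3 alone. Summed per kilobase, the 4 S1P receptors came to 11.6 CPM in GF+MEV and 17.7 CPM in GF+PBS livers. *S1pr1* made up 80.6% ± 3.0 of that sum in GF+MEV and 82.4% ± 1.8 in GF+PBS livers (SD, n = 5 each). The part of *S1pr3* was 6.36% ± 1.26 in GF+MEV and 3.61% ± 0.946 in GF+PBS livers (SD, n = 5 each), with ranges of 4.65% to 7.69% and 1.996% to 4.49%. The sum holds the receptors selected on these livers, so the shares were not tested.

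*Lpar6* (ENSMUSG00000033446, chromosome 14 from 73237895 to 73243294, plus strand), an LPA receptor known from hair growth, has 1 exon and lies inside the tumour suppressor gene *Rb1* on the other strand, with 408 exon bases in common. Its level was 7.56, 9.52, 6.37, 7.92 and 6.30 CPM in GF+MEV and 11.6, 9.02, 11.5, 11.2 and 9.55 CPM in GF+PBS replicates 1 to 5. The groups overlapped through replicate 2 of each, which was the highest GF+MEV and the lowest GF+PBS liver. The log2 fold change was -0.49 (standard error 0.13, means 7.53 ± 1.32 and 10.6 ± 1.20 CPM, SD, n = 5 each). *Lpar2*, the other LPA receptor tested, was 2.58 ± 0.293 CPM in GF+MEV and 3.13 ± 0.428 CPM in GF+PBS livers (SD, n = 5 each), a difference of -0.28 on the log2 scale (edgeR adjusted p = 0.311). *Lpar1*, *Lpar3*, *Lpar4* and *Lpar5* were not in the count table.

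*Ptafr* (ENSMUSG00000056529, chromosome 4 from 132564067 to 132582683, plus strand), a receptor of neutrophils and macrophages, rested on few reads, from 5 to 28 per library. It was 0.549, 0.345, 0.917, 0.561 and 0.643 CPM in GF+MEV and 1.06, 1.01, 1.01, 1.42 and 0.841 CPM in GF+PBS replicates 1 to 5. Replicate 3 of GF+MEV lay above replicate 5 of GF+PBS, and otherwise the groups were apart. The log2 fold change was -0.79 (standard error 0.22). Counting alone gives a coefficient of variation of 30.7% in GF+MEV and 22.8% in GF+PBS livers at this depth, and 34.3% and 19.8% were seen. Of 9 marker genes of monocytes and neutrophils, *Csf3r* alone was in the table, at a mean of 1.595 CPM in GF+MEV and 1.71 CPM in GF+PBS livers, and of 6 markers of dendritic cells *Clec9a* alone, at 1.64 and 1.55 CPM.

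*Cnr2* (ENSMUSG00000062585, chromosome 4 from 135895394 to 135920207, plus strand) had the most negative log2 fold change of the 10, -1.16 (standard error 0.28). It was 0.793, 0.621, 1.21, 1.29 and 1.61 CPM in GF+MEV and 3.44, 2.07, 3.15, 1.87 and 1.98 CPM in GF+PBS replicates 1 to 5. No GF+MEV liver reached the GF+PBS range, and the means were 1.10 ± 0.396 CPM in GF+MEV and 2.50 ± 0.736 CPM in GF+PBS livers (SD, n = 5 each). By the log2 fold change of the edgeR fit, the GF+MEV level was 44.7% of the GF+PBS level. GF+PBS replicates 1 and 3 were above the other livers of their group, and against these alone the log2 fold change was -1.57. Against replicates 2, 4 and 5 alone it was -0.82, past the threshold of the edgeR fit no longer. The other cannabinoid receptor gene, *Cnr1*, was not in the count table.

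B cells are a main site of the CB2 receptor that *Cnr2* encodes, and their markers are given beside it. Of 8 B cell markers 7 were tested, all 7 with a negative log2 fold change (median -0.57), and *Cd79a* and *Cd79b*, the chains of the B cell receptor complex, were called lower. *Cd79a* fell from a GF+PBS mean of 2.39 ± 0.313 to a GF+MEV mean of 1.30 ± 0.218 CPM (SD, n = 5 each), a difference of -0.87 on the log2 scale (edgeR adjusted p = 0.00715). *Cd79b* fell from 2.34 ± 0.381 to 1.37 ± 0.346 CPM (SD, n = 5 each), a difference of -0.76 on the log2 scale (edgeR adjusted p = 0.0316). *Ighm*, the marker at the highest level, differed by -0.52 on the log2 scale (edgeR adjusted p = 0.0932) and was called by DESeq2 alone. Summed over the 7 markers, livers held 11.4 to 19.0 CPM in GF+MEV and 19.2 to 26.2 CPM in GF+PBS. In GF+PBS replicates 1 to 5 the sum was 24.6, 19.2, 23.3, 26.2 and 23.7 CPM. The part of B cells in the level of *Cnr2* was not tested.

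**Figure D3:**
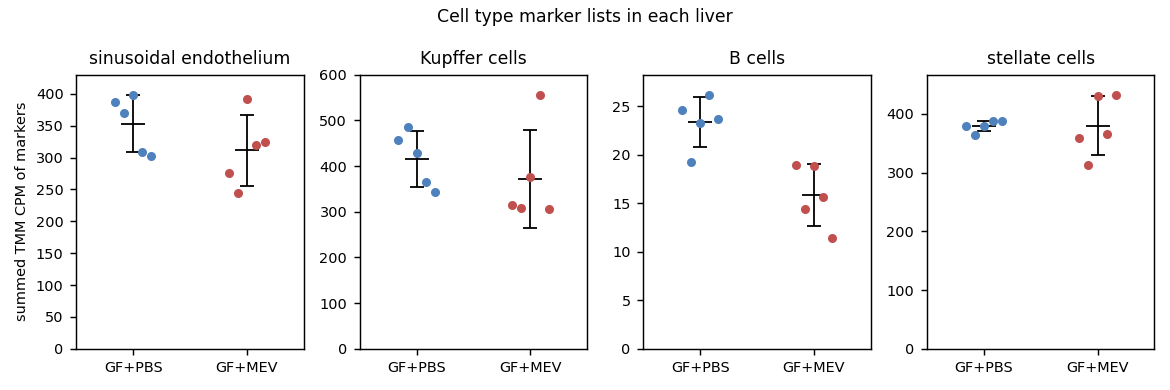
Summed TMM CPM of the tested markers of 4 liver cell types on linear axes from 0, with a point for each liver in order of replicate number and the mean ± SD of 5 livers as bars. The B cell sums of GF+MEV livers (11.4 to 19.0) lie below those of GF+PBS livers (19.2 to 26.2), and the other 3 sums overlap between the groups.

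*P2ry6* (ENSMUSG00000048779, chromosome 7 from 100937630 to 100974649, minus strand), which microglia and macrophages use to sense UDP from damaged cells, was 0.549, 1.04, 1.06, 1.68 and 1.09 CPM in GF+MEV and 1.83, 2.41, 1.25, 1.31 and 1.501 CPM in GF+PBS replicates 1 to 5. The groups overlapped, because replicate 4 of GF+MEV was above 3 GF+PBS livers. The log2 fold change was -0.60 (standard error 0.28), on 9 to 43 reads per library. Kupffer cells are the resident macrophages, and 12 of their markers were summed. The sum was 556 CPM in GF+MEV replicate 4 and 305.6 to 376.0 CPM in the other GF+MEV livers. In GF+PBS livers it was 342.3 to 485.7 CPM. The edgeR fit called 0 of these 12 genes, DESeq2 also called 0, and 2 (*Cd163* and *Folr2*) had an unadjusted edgeR p below the threshold. Their median log2 fold change was -0.13, and *Cd5l*, at the highest level of them, had one of -0.29 (edgeR adjusted p = 0.478). Whether the number of Kupffer cells had a part in the level of *P2ry6* was not tested.

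*P2ry13* (ENSMUSG00000036362, chromosome 3 from 59207892 to 59210882, minus strand), an ADP receptor that in hepatocytes is tied to uptake of high-density lipoprotein, lies inside *Med12l* on the other strand, with 0 exon bases in common. It was 1.40, 0.828, 1.84, 1.97 and 1.03 CPM in GF+MEV and 2.33, 2.69, 2.56, 2.02 and 2.04 CPM in GF+PBS replicates 1 to 5. The groups did not overlap, but replicate 4 of GF+MEV was within 0.0564 CPM of replicate 4 of GF+PBS, less than the counting error of either. The means were 1.41 ± 0.493 and 2.33 ± 0.300 CPM (SD, n = 5 each), a difference of -0.69 on the log2 scale (standard error 0.23).

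The P2Y receptors *P2ry1*, *P2ry2* and *P2ry4*, which answer to ADP, ATP or UTP, were at higher levels per kilobase than *P2ry6* and *P2ry13*. *P2ry2* was 24.8 ± 1.60 CPM in GF+MEV and 22.4 ± 2.78 CPM in GF+PBS livers (SD, n = 5 each), a difference of 0.15 on the log2 scale (edgeR adjusted p = 0.353). *P2ry1* and *P2ry4* both had a log2 difference of -0.03 (edgeR adjusted p = 0.938 and 0.944). Summed per kilobase, the 5 P2Y receptors came to 10.04 CPM in GF+MEV and 10.06 CPM in GF+PBS livers. *P2ry2* made up 63.0% ± 3.36 of that in GF+MEV and 56.6% ± 4.77 in GF+PBS livers, while *P2ry13* made up 5.47% ± 1.55 and 9.25% ± 1.64 (SD, n = 5 each). The sum holds *P2ry6* and *P2ry13*, which were selected on these livers, so the shares were not tested.

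*Adora2a* (ENSMUSG00000020178, chromosome 10 from 75316877 to 75334784, plus strand), the adenosine receptor that raises cAMP and restrains immune cells, was 1.77, 0.897, 1.64, 1.85 and 1.35 CPM in GF+MEV and 1.999, 2.24, 1.55, 2.22 and 2.46 CPM in GF+PBS replicates 1 to 5. Replicate 3 of GF+PBS lay below 3 GF+MEV livers, so the groups overlapped. The log2 fold change was -0.46 (standard error 0.21). *Adora1*, which lowers cAMP, made up most of the adenosine receptor RNA per kilobase, 93.2% ± 1.71 in GF+MEV and 90.4% ± 1.65 in GF+PBS livers (SD, n = 5 each). These shares depend on *Adora2a*, which was selected on these livers, and were not tested. The level of *Adora1* was 38.8 ± 3.97 CPM in GF+MEV and 37.5 ± 1.95 CPM in GF+PBS livers (SD, n = 5 each), a difference of 0.05 on the log2 scale (edgeR adjusted p = 0.753), and 1162 of its exon bases are shared with *Mybph* on the other strand.

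*Sucnr1* (ENSMUSG00000027762, chromosome 3 from 60081869 to 60087566, plus strand), the succinate receptor, had the least negative log2 fold change of the 10 and the smallest error, -0.38 (standard error 0.079). Its level was 39.8, 48.4, 45.0, 46.7 and 40.7 CPM in GF+MEV and 62.2, 49.4, 60.1, 57.4 and 57.9 CPM in GF+PBS replicates 1 to 5. The groups did not overlap, with replicate 2 of GF+PBS as the lowest of its group and 1.06 CPM above the highest GF+MEV liver. The means were 44.1 ± 3.72 and 57.4 ± 4.85 CPM (SD, n = 5 each), on 633 to 1135 reads per library. *Sucnr1* is known in liver from stellate cells, whose 11 markers summed to 313.2 to 432.5 CPM in GF+MEV and 364.8 to 387.2 CPM in GF+PBS livers with a median log2 fold change of 0.0069, that of *Ecm1*, the marker at the highest level. None of these markers was called by the edgeR fit or by DESeq2, and 1 of them, *Lrat*, had an unadjusted edgeR p below the threshold.

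Within GF+MEV, replicate 2 was the lowest liver for 6 of the 10 receptors and replicate 4 the highest for 4. Replicate 2 also had the highest sum of 3 cholangiocyte markers, 79.3 CPM against 28.1 to 43.1 CPM in the other GF+MEV livers and 23.2 to 29.7 CPM in GF+PBS livers. One of the 3, *Krt19*, was called higher in GF+MEV, at 8.20 ± 5.80 against 0.560 ± 0.191 CPM (SD, n = 5 each), or 3.87 on the log2 scale (edgeR adjusted p = 0.000631), and *Spp1*, at the highest level of them, was not called (0.52, edgeR adjusted p = 0.133). *Sox9*, the other marker tested, had a lower mean in GF+MEV and was not called (-0.98, edgeR adjusted p = 0.103). It was 0.961 ± 0.440 CPM in GF+MEV and 1.88 ± 0.784 CPM in GF+PBS livers (SD, n = 5 each). Of 7 listed markers, 4 were not in the count table. The part of bile duct cells in the receptor levels was not tested. Within GF+PBS, replicates 1 and 2 were each the highest for 4. Over the 10 livers, the pair of receptors with the most similar pattern was *Lpar6* and *Sucnr1*, with a root mean square distance of 0.148 between their centred log2 CPM values. Across 11320 other named genes, the nearest to *Ptafr* was *Cd79a* (0.187 on the log2 scale), to *S1pr2* the endothelial claudin gene *Cldn5* (0.190), and to *P2ry6* the myeloid myosin gene *Myo1f* (0.178) followed by *H2-DMb1* (0.200), a class II antigen presentation gene. For *Sucnr1* the nearest were *Cwf19l1* (0.0827) and *Casp2* (0.0874), and for *Lpar6* they were *Rgmb* (0.0846) and *Pim1* (0.115). *S1pr1* was nearest to *Trp53rka* (0.134) and *Arhgdib* (0.151), *S1pr5* to *Anks4b* (0.145) and *Klhdc7a* (0.150), and *Cnr2* to *Ptk6* (0.233) and *Id2* (0.288). *P2ry13* was nearest to *Armc7* (0.169) and *Nkd1* (0.185), and *Adora2a* to *Bmp7* (0.169) and *Kctd7* (0.171). The second nearest genes of *Ptafr* and *S1pr2* were *Dact2* (0.210) and *Fbxl21* (0.218). The median distance to all genes ran from 0.276 for *Sucnr1* to 0.709 for *Cnr2*. These distances include the difference between the groups.

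Other receptors of the same ligand families were tested with the edgeR fit, adjusted over all genes. Of 30 listed, 9 were in the table, 0 were called by edgeR or by DESeq2, and 0 had an unadjusted edgeR p below the threshold. Their log2 fold changes ran from -0.28 (*Lpar2*) to 0.22 (*S1pr3*), with a median of -0.026. Among the ATP-gated channels, *P2rx4* was 78.3 ± 5.45 CPM in GF+MEV and 79.8 ± 5.20 CPM in GF+PBS livers (SD, n = 5 each), a difference of -0.03 on the log2 scale. *P2rx7* (-0.25, edgeR adjusted p = 0.590) and *P2rx3* (0.08, edgeR adjusted p = 0.907) had group means of 1.43 to 2.05 CPM. A p that misses the threshold does not show that these genes did not differ.

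**Figure D4:**
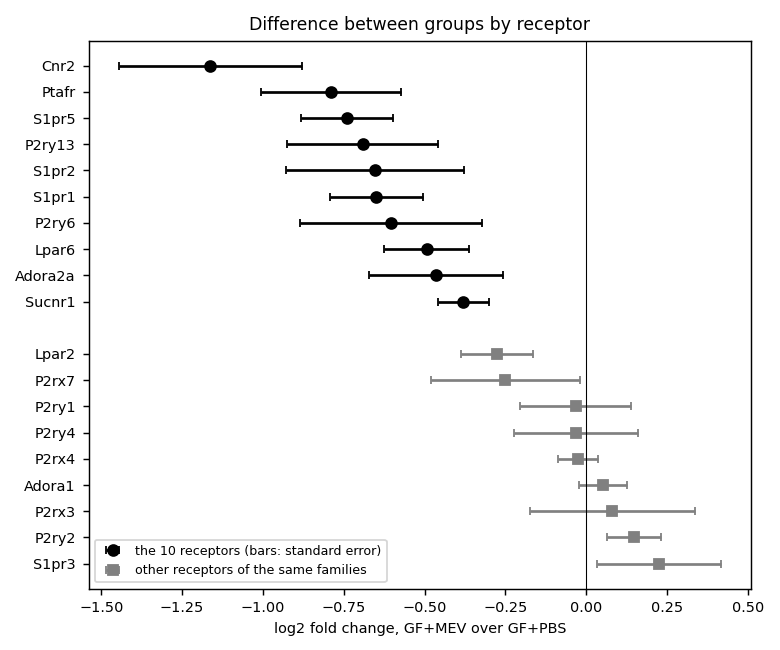
Log2 fold change of the edgeR fit, GF+MEV over GF+PBS livers, for the 10 receptors (circles) and 9 other receptors of the same families (squares). Bars are the standard error of the difference in mean log2 CPM. The circles lie between -1.16 and -0.38, by the way they were selected. The squares, which are the receptors left by that selection, lie between -0.28 and 0.22.

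The other genes of the ligands' pathways were counted in lists. Over 189 listed genes, the receptors above included and the 10 left out, 129 were tested, 6 were called higher and 3 lower, or 6.98%, against 7.64% of all tested genes. Their median log2 fold change was -0.0142.

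In the list for S1P and ceramide, 32 of 41 genes were tested, 2 were higher and 1 lower. *Spns2*, the transporter that exports S1P from endothelial cells, fell from a GF+PBS mean of 42.1 ± 2.60 to a GF+MEV mean of 29.6 ± 2.11 CPM (SD, n = 5 each), a difference of -0.51 on the log2 scale (with an SE of 0.061, edgeR adjusted p = 0.00024). The groups did not overlap, with 39.2 to 44.6 CPM against 26.8 to 31.9 CPM. *Acer2*, a ceramidase that frees sphingosine from ceramide, rose from 8.60 ± 1.07 to 13.1 ± 1.87 CPM (SD, n = 5 each), a difference of 0.60 on the log2 scale (edgeR adjusted p = 0.00496), and against GF+PBS replicates 1 and 3 alone it was not past the threshold (0.50, edgeR adjusted p = 0.0582). *Smpd3*, a neutral sphingomyelinase, rose from 4.97 ± 1.01 to 7.61 ± 1.31 CPM (SD, n = 5 each), a difference of 0.61 on the log2 scale (edgeR adjusted p = 0.0264), a call lost when any of 6 single livers (GF+MEV replicates 2, 3 and 4, GF+PBS replicates 1, 2 and 3) was left out (edgeR adjusted p = 0.0507 to 0.0663), with the alike GF+PBS libraries summed (0.0533) and against GF+PBS replicates 2, 4 and 5 alone (0.118). Not called were *Cers2*, the main ceramide synthase of the liver, at 328.7 and 347.5 CPM, and *Apom*, the plasma carrier of S1P, at 201.8 and 217.3 CPM in GF+MEV and GF+PBS. *Spns2* shares 131 exon bases with *Mybbp1a* and *Smpd3* 247 with *Prmt7*, each on the other strand.

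In the list for lysolipids and platelet-activating factor, 18 of 24 genes were tested and 1 was lower. *Pla2g16*, a phospholipase and acyltransferase of fat metabolism, fell from a GF+PBS mean of 11.8 ± 2.02 to a GF+MEV mean of 8.69 ± 0.482 CPM (SD, n = 5 each), a difference of -0.44 on the log2 scale (edgeR adjusted p = 0.0272). This call was lost without any of GF+MEV replicates 3, 4 and 5 or GF+PBS replicates 4 and 5 (edgeR adjusted p = 0.056 to 0.0749) and with the alike GF+PBS libraries summed (0.065), and the value was -0.21 against GF+PBS replicates 1 and 3 alone. *Enpp2*, which encodes autotaxin, the enzyme that makes LPA in plasma, had a log2 difference of 0.22 (edgeR adjusted p = 0.0535) and was called by DESeq2. *Pla2g15*, a lysosomal phospholipase, had one of -0.30 (edgeR adjusted p = 0.057) and was also called by DESeq2. The genes with the highest levels, *Lpgat1* and *Pafah2*, had log2 fold changes of 0.03 and 0.02.

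In the endocannabinoid list, 9 of 11 genes were tested and 1 was higher. *Gde1*, a phosphodiesterase of one route to anandamide, rose from a GF+PBS mean of 47.1 ± 3.78 to a GF+MEV mean of 67.5 ± 1.495 CPM (SD, n = 5 each), a difference of 0.52 on the log2 scale (with an SE of 0.054, edgeR adjusted p = 8.58e-05). Its groups were apart, at 43.2 to 51.6 and 65.3 to 68.7 CPM. *Mgll* and *Faah*, the enzymes that break down endocannabinoids, had log2 fold changes of -0.05 and 0.03. *Gde1* shares 229 exon bases with Gm45236 on the other strand.

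In the list for nucleotides and adenosine, 19 of 24 genes were tested and 1 was higher. *Slc29a1*, which encodes the nucleoside transporter ENT1 that clears adenosine from outside the cell, rose from a GF+PBS mean of 147 ± 5.48 to a GF+MEV mean of 185 ± 14.2 CPM (SD, n = 5 each), a difference of 0.33 on the log2 scale (edgeR adjusted p = 0.00341). It shares 275 exon bases with Gm17080 on the other strand. *Adk*, adenosine kinase, had a log2 fold change of 0.04 and *Entpd5* one of -0.22 (edgeR adjusted p = 0.125). In the succinate list, 9 of 12 genes were tested, 0 were called by edgeR or by DESeq2 and 0 had an unadjusted edgeR p below the threshold. *Sdha*, a subunit of succinate dehydrogenase, was 644.8 ± 37.4 CPM in GF+MEV and 639.2 ± 16.2 CPM in GF+PBS livers (SD, n = 5 each), and *Suclg2* was 310.9 ± 13.98 and 315.4 ± 5.34 CPM.

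In the list of G protein subunits, RGS proteins, receptor kinases, arrestins and adenylyl cyclases, 33 of 47 genes were tested, and the 3 called by edgeR were all RGS genes. DESeq2 called 4, these 3 and the adenylyl cyclase gene *Adcy9* (log2 fold change 0.40, edgeR adjusted p = 0.0893). *Rgs16* rose from a GF+PBS mean of 115 ± 60.1 to a GF+MEV mean of 314 ± 94.0 CPM (SD, n = 5 each), a difference of 1.45 on the log2 scale (edgeR adjusted p = 0.0144). GF+PBS livers differed among themselves, with 51.2 and 47.4 CPM in replicates 1 and 3 and 149.3 to 166.5 CPM in replicates 2, 4 and 5, and the log2 fold change was 2.66 against the former alone and 0.98 against the latter, past the threshold in both. *Rgs4* rose from 0.896 ± 0.403 to 2.167 ± 0.235 CPM (SD, n = 5 each), a difference of 1.28 on the log2 scale (edgeR adjusted p = 0.00653). *Rgs3* fell from 14.4 ± 2.39 to 8.45 ± 1.53 CPM (SD, n = 5 each), a difference of -0.76 on the log2 scale (edgeR adjusted p = 0.00355). Against GF+PBS replicates 1 and 3 alone neither *Rgs4* (0.71, edgeR adjusted p = 0.109) nor *Rgs3* (-0.51, edgeR adjusted p = 0.0886) was past the threshold. *Gna12* and *Gnai2*, the G protein subunit genes at the highest levels, had log2 fold changes of -0.11 and -0.01. *Rgs16* shares 236 exon bases with Gm28513 on the other strand.

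**Figure D5:**
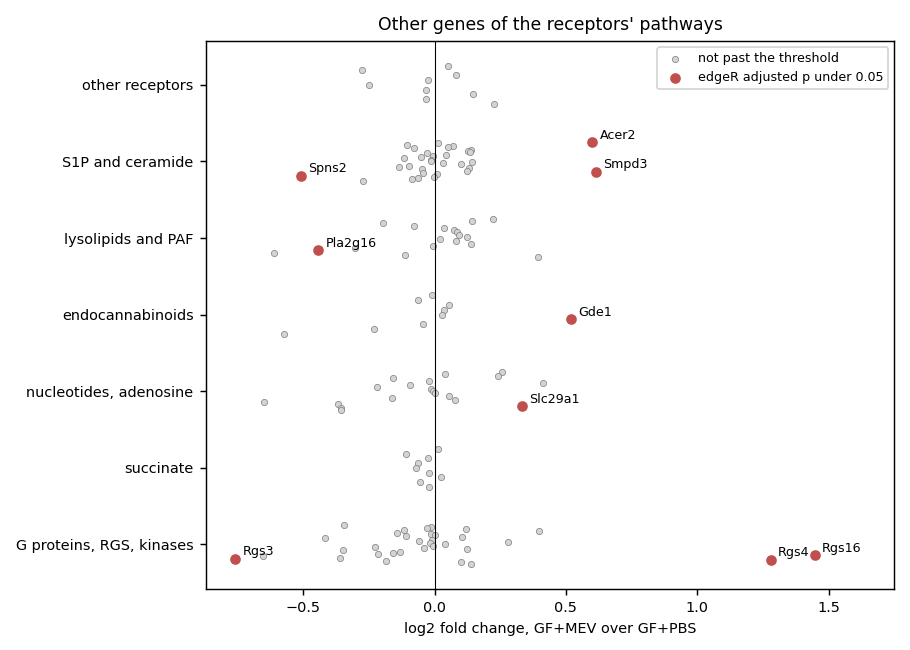
Log2 fold change of GF+MEV over GF+PBS livers for 129 other genes of the receptors' pathways, in 7 lists, with genes past the threshold of the edgeR fit in red and named. The 9 named genes lie between -0.76 (*Rgs3*) and 1.45 (*Rgs16*).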

How the data were processed

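Liver RNA libraries (total RNA, NEBNext Ultra kit, Illumina) of 10 germ-free mice were analysed. Reads had been mapped by the authors to GRCm38 using STAR 2.7.3a, counted them per gene with HTSeq, left out genes under 20 counts and deposited raw counts per Ensembl gene, which were used here without change. Whether the counting used strand is not given in the sources used here. The table also held 5 columns that match no described sample, and these were not used. GENCODE gene models of GRCm38 gave symbols and positions, and 5 identifiers had no symbol.

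Groups and replicate numbers came from the sample titles, as 5 livers per group. Genes with at least 20 counts over the 10 libraries were fitted with edgeR 4.0.16 (R 4.3.3) by TMM scaling and the quasi-likelihood test on treatment alone, with Benjamini-Hochberg adjustment over all tested genes at 0.05. The study used DESeq2, which served here as an alternative (version 1.42.0). Standard errors given with log2 fold changes are those of the difference in mean log2 CPM, with 2 as the prior count, and not of the edgeR fit. The prior count narrows the spread of genes with few reads, so their standard errors may be too small. Both fits were tested on simulated data. The receptors and the gene lists were chosen with earlier results of these data known. The genes named were the 10 receptors, the 2 nearest genes of each by root mean square distance, every called gene and the 2 uncalled genes with the highest mean CPM of each pathway list, all tested receptors of the same families, and marker genes that were called or highest in their list. *Enpp2*, *Pla2g15*, *Lrat*, *Cd163*, *Folr2*, *Fcgr2b*, *Sox9*, *Adcy9* and genes stated to be outside the table, such as *Cnr1*, were named after their values were seen. Promoters were RefSeq sequences of GRCm38.p6. Precision is limited by 5 livers per group and by counting error, which is large for receptors with few reads.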

Additional observations from a re-analysis of the deposited data

Results flagged for a closer look

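Among 56 groups of 5 livers, for 28 receptor and pathway genes, 4 had 1 liver whose gap to the others exceeded 0.71 of the group's range (Dixon's criterion), and chance gives about 2.8. The highest *S1pr5* level among GF+PBS livers was 5.72 CPM (replicate 2), and the next 4 lay between 3.89 and 4.38 CPM. *Lpar2* was 3.08 CPM in GF+MEV replicate 5 and 2.35 to 2.56 CPM in the other GF+MEV livers. *P2ry2* was 27.2 CPM in GF+PBS replicate 4 while the remaining 4 livers had 20.6 to 21.8 CPM. *Slc29a1* was 160.7 CPM in GF+MEV replicate 4, below the 188.8 to 197.1 CPM of the other GF+MEV livers. The 4 values came from 4 different genes and 4 different livers, and their causes were not tested.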

How the results depend on the processing

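The log2 fold changes of the 10 receptors stayed negative under every alternative that gave a value, and none moved by more than the spread between livers. Their median was -0.65 in the edgeR fit and between -0.73 and -0.58 with each liver left out. *Cnr2* ranged most, from -1.57 to -0.82 against parts of the GF+PBS group. The number called lower was 5, and 4 to 6 with each liver left out, where *Lpar6* was lost without GF+MEV replicates 3 or 5 or GF+PBS replicates 1, 3 or 4. It was 3 with alike GF+PBS libraries summed, which leaves 3 GF+PBS samples, and 3 against GF+PBS replicates 2, 4 and 5 alone. DESeq2 called 6, with *S1pr2* added. Of all tested genes, the edgeR fit called 3.52% lower. As the receptors had been selected on these same livers, their signs and counts under any setting are no evidence about them as a group. At least 10 counts in every library left *Ptafr*, *Cnr2* and *P2ry6* out of the fit. Over all genes 928 were called, 1201 by DESeq2, 561 with the alike GF+PBS libraries summed and 696 to 926 with each liver left out. Of the called genes 53.9% were higher, 41.2% with upper-quartile factors, 32.5% with library size alone and 68.9% against GF+PBS replicates 1 and 3 alone. Pathway genes called were 9, and 6 to 12 over all alternatives. Whether the replicate numbers pair the livers is not given in the sources used here, and with 5 livers per group it cannot be decided from the values. The deviations of same-numbered livers correlated at -0.188 to 0.166, and 2 of 5 GF+MEV livers correlated best with their own number. With the replicate block the fit called 792 genes, 4 of the receptors, without *Lpar6*, and 8 pathway genes, and the median of the receptors was -0.66. Under the block *Smpd3* (0.62, edgeR adjusted p = 0.0507) and *Pla2g16* (-0.43, edgeR adjusted p = 0.0677) were no longer past the threshold. For *Ptafr*, *P2ry6*, *P2ry13* and *Adora2a*, with 5 to 48 reads per library, depth limits what can be seen.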
